A study of Mus musculus with 4 samples.

Results

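Oligodendrocytes are the glial cells that wrap central axons in myelin, and the messenger RNAs of 34 genes of their lineage were examined in whole brain of senescence-accelerated mice. The genes were taken from a list of precursor, differentiating and mature myelin genes, and a probe belonged to a gene where the RefSeq accession on the array was that gene's. Of the 34 genes, 30 had a probe that matched in this way, with 45 probes among the 41174 on the array; Vcan, Sox10, Myrf and Ermn had none. The 30 genes fell into 3 precursor genes (Pdgfra, Cspg4, Neu4), 4 lineage regulators (Olig1, Olig2, Nkx2-2, Nkx6-2), 4 genes of differentiating cells (Gpr17, Bcas1, Enpp6, Tspan2) and 19 genes of mature myelinating cells. They are 30 of 33269 features, a feature being a named gene or an unnamed accession.

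The study compared 3 kinds of brain RNA on 4 Agilent 2-colour arrays. SAMP8, the senescence-prone strain, had eaten either food with added whale meat extract (WME) or the low-safflower oil (LSO) control diet, and SAMR1, the senescence-resistant strain, had received LSO only. For both strains the labels give AKR/J as the background, with suspected outbreeding to an unknown line. All mice ate chow until 24 weeks of age and the experimental diet for 26 weeks, underwent behavioural tests at 49 weeks and were killed at 50 weeks. Arrays 1 and 2 of the diet pair carried SAMP8 WME against SAMP8 LSO, and arrays 1 and 2 of the strain pair carried SAMP8 LSO against SAMR1 LSO, each time with the dyes exchanged on the second array. The label SAMP8 LSO thus enters both pairs. How many mice stood behind an RNA, and whether they were pooled, is not stated in any label. Each comparison is therefore 1 replicate measured on 2 arrays, and no p-value was computed. Every SD written after a ± sign is over the 2 dye orientations and covers technical error only. An SD said to be over genes describes their spread.

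As background, oligodendrocyte precursors persist in the adult brain, divide in response to platelet-derived growth factor and carry the NG2 proteoglycan. The transcription factors Olig1 and Olig2 mark the whole lineage. When a precursor commits to differentiation it passes through a short stage with Gpr17, Bcas1 and Enpp6, and then makes the lipids and the compaction, adhesion and junction proteins of the sheath. In bulk tissue, fewer cells of a type and less RNA per cell cannot be told apart.

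Each array had 43379 probe spots, of which 81.5 to 85.6% were well above background in a given dye, and no spot was saturated. All 30 genes were measured in both pairs, meaning that, on both arrays, at least 1 RNA gave a signal well above background, and 43 of the 45 probes were so in both RNAs of both pairs. The defining genes of the lineage gave strong signals, and the processed signal of Mbp, the myelin basic protein, lay between 71180 and 108200 in every RNA. Processed signals are Feature Extraction's background-subtracted and dye-normalized values in arbitrary units and are compared only within a probe or within the sum of a list, while log2 ratios come from loess-normalized median intensities. Where the signals of a pair are said below to overlap or not, this describes 2 readings of each RNA. The share of all measured genes without overlap is not given here, so non-overlap alone does not set a gene apart. Transcripts known from kidney were also detected. The 8 kidney transcripts examined summed to processed signals of 4984 and 4425 in SAMP8 WME, against 312 and 368 in SAMP8 LSO, and in the strain pair to 259 and 369 in SAMP8 LSO, against 1172 and 1360 in SAMR1 LSO. Acsm2 and Umod were the 2 of them not well above background in both RNAs. The highest, Kap, had a mean log2 ratio of 4.44 in the diet pair and −3.00 in the strain pair. Mal and Car2 are among the lineage genes that kidney also makes.

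In the strain pair, none of the 30 genes was called, a call being a ratio of 1.5-fold or more on both arrays with the same sign. Such a call was made for 1.46% of 26937 measured genes. Smaller differences were frequent. The log2 ratio of SAMP8 LSO over SAMR1 LSO was above 0 on both arrays for 16 of the 30 genes, against 23.9% of all measured genes, and below 0 on both for 4, against 26.7%. The mean of both arrays reached 1.2-fold for 6 genes, against 6.38% of all measured genes. The 5 higher ones (3.79% of all measured genes) were Opalin, Olig1, Olig2, Enpp6 and Gpr17, and the lower one (2.59% of all measured genes) was Car2. This smaller fold was chosen after the values were known. With the median over the probes of a gene, taken on each array before averaging, Olig2 at 0.23 and Gpr17 at 0.17 fell short of it and Mbp at −0.34 passed it. For Mbp that median came from different probes on the 2 arrays, at −0.10 and −0.58. The means of its 3 probes were −0.22, −0.04 and −0.37. Under median centring without loess Gpr17 at 0.2627 just missed it, and Mbp at −0.35 passed it. Among the 25 genes with a mean log2 intensity of at least 10 the count was 5, against 5.45% of all measured genes of that brightness.

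**Figure D1:**
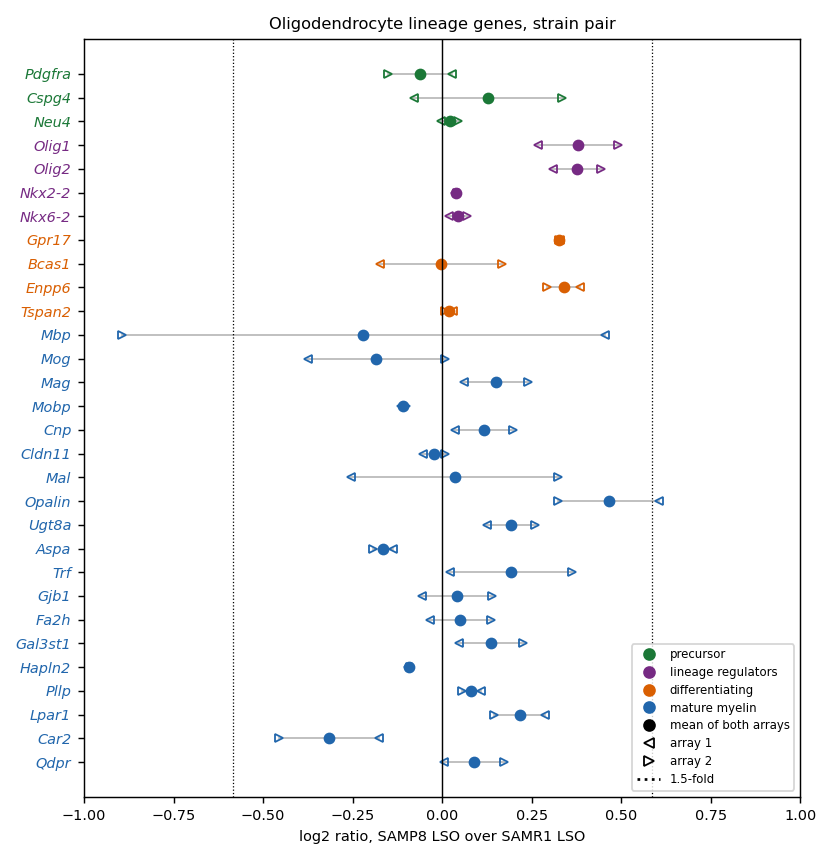
Log2 ratio of SAMP8 LSO over SAMR1 LSO (x axis) for the brightest probe of each of the 30 genes (y axis), with open triangles for the 2 dye orientations, a filled circle for their mean and dotted lines at 1.5-fold. Opalin, Olig1, Olig2, Enpp6 and Gpr17 lie farthest to the right, Car2 farthest to the left, and the arrays of Mbp are the widest apart.

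The precursor genes differed little between the strains. Pdgfra, the receptor for platelet-derived growth factor, had processed signals of 1649 and 1651 in SAMP8 LSO, against 1655 and 1842 in SAMR1 LSO, and a mean log2 ratio of −0.06 ± 0.13. Its dim second probe gave −0.06 as well. Cspg4, which encodes the NG2 proteoglycan, had signals of 1048 and 1339 in SAMP8 LSO, against 1057 and 1123 in SAMR1 LSO, and its log2 ratios of −0.08 and 0.33 took opposite signs. Neu4, a sialidase of oligodendrocyte precursors, was dim and had a ratio of 0.02 ± 0.03. The signals of both RNAs overlapped for Cspg4 and Neu4, while those of Pdgfra in SAMP8 LSO lay just below the SAMR1 LSO values.

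The lineage regulators divided into a higher pair and a near-equal pair. Olig1, a basic helix-loop-helix factor, had processed signals of 13210 and 14460 in SAMP8 LSO, against 10560 and 11360 in SAMR1 LSO. Its log2 ratios were 0.27 and 0.49, a mean of 0.38 ± 0.16. Olig2, its neighbour on chromosome 16 and the factor needed to specify the lineage, had signals of 964 and 1116 in SAMP8 LSO, against 785 and 803 in SAMR1 LSO. In both genes the SAMP8 LSO values lay above every SAMR1 LSO value. The log2 ratios of Olig2 were 0.31 and 0.44, a mean of 0.38 ± 0.09, while a second Olig2 probe that was not well above background in every RNA gave 0.08 ± 0.31. The homeodomain factor Nkx2-2 had 0.04 on each array. Nkx6-2, a homeodomain factor of differentiated oligodendrocytes, had 0.02 and 0.07, and its sign turned to −0.02 under median centring without loess.

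Among the genes of differentiating cells, Gpr17 and Enpp6 were higher in SAMP8 LSO and Bcas1 and Tspan2 were near equal. Gpr17, a receptor that appears briefly as precursors commit, had processed signals of 5401 and 5112 in SAMP8 LSO, against 4257 and 4169 in SAMR1 LSO. Its log2 ratio was 0.33 on each array, or 1.25-fold, and its dim second probe, not well above background in every RNA, gave 0.02. Enpp6, a choline phosphodiesterase of newly formed oligodendrocytes, had signals of 229 and 235 in SAMP8 LSO, against 170 and 180 in SAMR1 LSO. The RNAs did not overlap for either gene, which rests on 2 readings of each RNA. The log2 ratios of Enpp6 were 0.39 and 0.29, a mean of 0.34 ± 0.07 or 1.26-fold, and its second probe gave 0.23 ± 0.06. Bcas1, a protein of early myelinating cells, had log2 ratios of −0.17 and 0.17, and 0.11 by its second probe. Tspan2, a tetraspanin of the sheath, had a mean log2 ratio of 0.02 by each of its probes, and −0.06 by the brighter under median centring without loess.

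The 19 mature myelin genes lay on both sides of 0, with 9 above 0 on both arrays and 4 below, against 23.9% and 26.7% of all measured genes. Opalin, a transmembrane protein of mature oligodendrocytes, had the highest ratio of the 30 genes. Its processed signals were 925 and 962 in SAMP8 LSO, against 641 and 755 in SAMR1 LSO. Its log2 ratios were 0.61 and 0.32, a mean of 0.47 ± 0.20 or 1.38-fold, so that array 1 alone passed 1.5-fold. Opalin has a single probe on this array, which no second probe could check.

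Ugt8a and Gal3st1, both of myelin lipid synthesis, were above 0 on both arrays. Ugt8a, which makes galactocerebroside, had log2 ratios of 0.13 and 0.26 by its brighter probe, a mean of 0.19 ± 0.09. Its second probe gave 0.32 ± 0.04, with signals of 402 and 447 in SAMP8 LSO, against 320 and 343 in SAMR1 LSO. The RNAs did not overlap for either Ugt8a probe. Gal3st1, which sulfates galactocerebroside, had a ratio of 0.14 ± 0.13, and Fa2h, which hydroxylates the fatty acids of myelin lipids, had 0.05 ± 0.12 with arrays of opposite sign and −0.02 under median centring without loess.

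Other genes above 0 on both arrays were mostly small in size. Lpar1, a lysophosphatidic acid receptor, had a log2 ratio of 0.22 ± 0.10 and of 0.18 by its second probe. Mag, the adhesion protein of the innermost wrap, had 0.15 ± 0.13 and 0.13, and Trf, the iron carrier transferrin, had 0.19 ± 0.24. Cnp, a cyclic nucleotide phosphodiesterase, had 0.12, Qdpr, which regenerates tetrahydrobiopterin, 0.09, and Pllp, plasmolipin, 0.08. The second Pllp probe gave −0.02. Under median centring without loess Qdpr turned to −0.03, and Mag and Cnp shrank to 0.03 and 0.02.

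Of the mature genes on the lower side, Car2 was the farthest from 0. This carbonic anhydrase had processed signals of 26160 and 24810 in SAMP8 LSO, against 31680 and 32180 in SAMR1 LSO. Its log2 ratios were −0.18 and −0.46, a mean of −0.32 ± 0.20 or 1.25-fold lower. Car2 is also made by choroid plexus and kidney, as Trf is by choroid plexus, and the part of those tissues in these ratios was not tested. Choroid plexus markers were below 0 on both arrays in 6 of 6 measured cases, against 26.7% of all measured genes. Their summed signals were 10780 and 10800 in SAMP8 LSO, against 12180 and 13170 in SAMR1 LSO.

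Mobp, a small basic protein of compact myelin, and Aspa, which cleaves N-acetylaspartate, were lower on both arrays by all 4 of their probes. The brighter Mobp probe had log2 ratios of −0.12 and −0.10. The dimmer had −0.24 and −0.25, with signals of 1358 and 1457 in SAMP8 LSO, against 1588 and 1834 in SAMR1 LSO. Aspa had −0.14 and −0.19 by its brighter probe and a mean of −0.13 ± 0.08 by the other. Hapln2, a link protein of the node of Ranvier, had −0.09 on each array. Mog, on the outermost surface of the sheath, had −0.18 ± 0.27 with arrays of opposite sign. Cldn11 (tight junctions of the sheath), Mal (a proteolipid of raft membranes) and Gjb1 (a gap junction protein) had mean log2 ratios of −0.02, 0.03 and 0.04, that of Mal turning to −0.03 under median centring without loess.

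The 250 bases upstream of the annotated start are shown for Olig2, Opalin and Mobp, a regulator and a mature gene that were higher in SAMP8 LSO and a mature gene that was lower. They are RefSeq promoter windows of build GRCm38.p6, written 5′ to 3′ on the gene's strand, at chr16:91225300-91225549 (plus strand) for Olig2, chr19:41077114-41077363 (minus strand) for Opalin and chr9:120149492-120149741 (plus strand) for Mobp. Capitals mark the letters ACAAAG on either strand (CTTTGT on the other), the core bound by SOX-family factors, of which Sox10 is the one best known in this lineage.
Olig2: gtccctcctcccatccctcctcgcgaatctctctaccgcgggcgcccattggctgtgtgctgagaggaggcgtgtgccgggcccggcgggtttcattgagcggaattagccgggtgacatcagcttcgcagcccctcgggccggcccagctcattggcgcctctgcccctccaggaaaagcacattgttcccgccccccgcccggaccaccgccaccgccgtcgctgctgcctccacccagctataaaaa
Opalin: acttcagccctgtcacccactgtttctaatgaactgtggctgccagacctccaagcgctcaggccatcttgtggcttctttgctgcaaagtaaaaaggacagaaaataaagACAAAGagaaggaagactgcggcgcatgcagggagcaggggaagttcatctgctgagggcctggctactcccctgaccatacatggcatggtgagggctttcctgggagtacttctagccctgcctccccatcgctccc
Mobp: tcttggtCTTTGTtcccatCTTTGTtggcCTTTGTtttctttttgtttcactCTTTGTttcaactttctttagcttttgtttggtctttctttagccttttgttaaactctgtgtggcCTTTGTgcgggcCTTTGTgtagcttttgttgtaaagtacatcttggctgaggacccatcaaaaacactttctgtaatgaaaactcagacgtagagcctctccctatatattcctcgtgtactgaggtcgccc
The motif stood 0 times in the Olig2 window, once in that of Opalin and 6 times in that of Mobp. Of all 32851 mouse windows of this length 16.5% held it, and Mobp was the only window with 6. Windows were at hand for 25 of the 34 lineage genes, among them Vcan and Ermn, which had no probe. Of the 35 windows of these 25 genes, 10 held the motif. The motif was chosen after the Mobp sequence had been seen, and a match is a description of letters, not a binding site. Motif number and direction of the strain ratio were not compared.

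By stage, the median log2 ratio of the strain pair was 0.02 for the precursor genes, 0.21 for the lineage regulators, 0.17 for the differentiating genes and 0.05 for the mature myelin genes, the last turning to −0.02 under median centring without loess. Median centring gave 0.10 for the differentiating genes, and the median over probes gave 0.14 for the regulators and 0.11 for the differentiating genes. On single arrays the median ran from −0.0027 to 0.0454 for precursor and from 0.0042 to 0.1398 for mature genes. The median of all 26937 measured genes was −0.01, and their central 95% lay between −0.27 and 0.36. Olig1, Olig2 and Opalin lay above that range and Car2 lay below it. With 3 or 4 genes in each of the smaller stages, no difference between stages was tested.

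**Figure D2:**
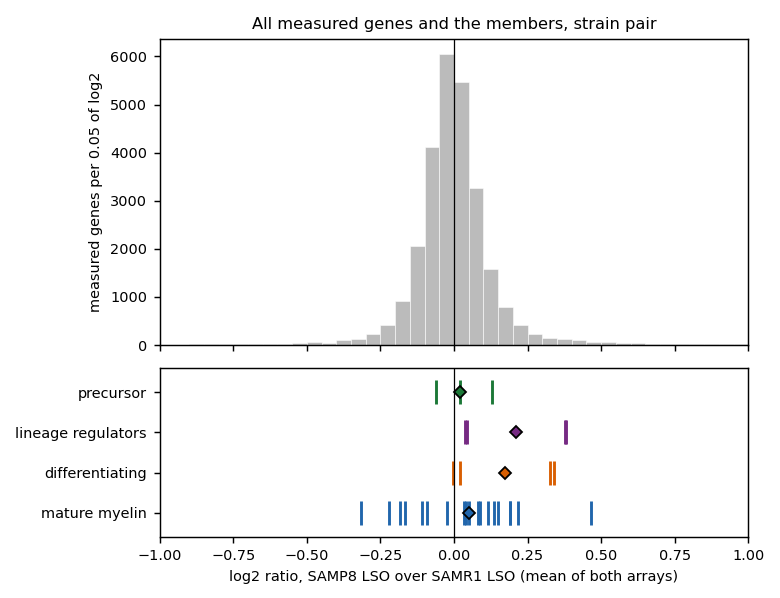
Upper panel, number of measured genes (y axis) by mean log2 ratio of SAMP8 LSO over SAMR1 LSO (x axis); lower panel, each lineage gene as a tick on the same axis, with a diamond at the median of its stage. The diamonds stand at 0.02 for precursor, 0.21 for regulator, 0.17 for differentiating and 0.05 for mature myelin genes (−0.02 for the mature genes under median centring without loess), and each stage has members inside the bulk of all genes.

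Dye orientation also shifted these genes. The dye term of a gene, which is the part of its ratio that changes sign with the dyes, had an SD of 0.17 over the 30 genes in the diet pair and 0.16 in the strain pair, and it took the same sign in both pairs for 27 of them. Over all measured genes these SDs were 0.11 and 0.11, and the sign was shared by 19834 of 26390. Mbp was the extreme case. Its brightest probe had log2 ratios of 0.45 and −0.89 in the strain pair and of 0.52 and −0.68 in the diet pair, so that array 2 alone passed 1.5-fold in each pair. Its means were −0.22 ± 0.95 in the strain pair and −0.08 ± 0.84 in the diet pair. In the strain pair its other probes gave −0.04 and −0.37, the second of these with −0.16 and −0.58 on the 2 arrays.

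**Figure D3:**
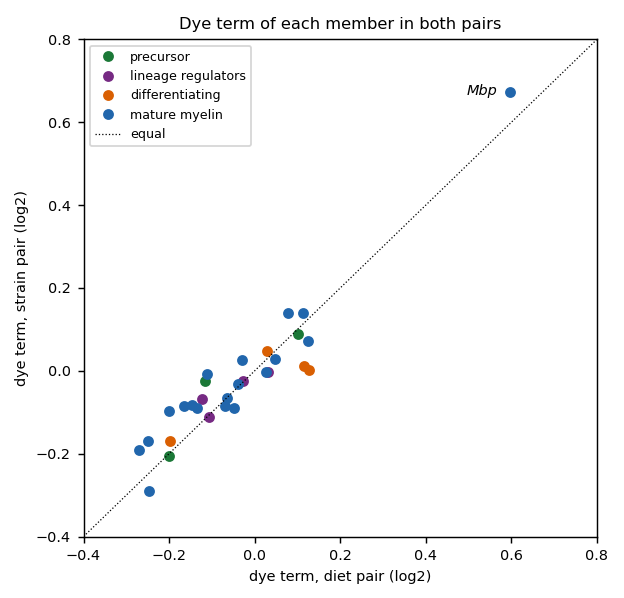
Dye term of each of the 30 genes (log2), diet pair on the x axis and strain pair on the y axis, with a dotted line of equality. The points follow the line, and Mbp stands alone at 0.60 and 0.67.

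The difference of the dye terms between the pairs, scaled to the error of a mean of 2 arrays, is an approximate measure of technical error. It is not wholly free of RNA differences, since it was positive for all 8 kidney transcripts, at 0.1964 to 0.427. Over the 30 genes it had an SD of 0.04 and ran from −0.07 to 0.09, and over all measured genes it had an SD of 0.05 and ran from −0.46 to 0.43. The mean log2 ratios of the 30 genes had an SD of 0.19 in the strain pair and of 0.06 in the diet pair. Over all measured genes these SDs were 0.20 and 0.08. When the dye term of the diet pair was subtracted from the strain arrays, 17 genes were above 0 on both arrays, against 27.8% of all measured genes, and 8 below, against 32.7%. Opalin then stood at 0.53 and 0.40, Olig1 at 0.37 and 0.38, Olig2 at 0.43 and 0.32, Enpp6 at 0.36 and 0.32, Gpr17 at 0.20 and 0.45, and Mbp at −0.14 and −0.30. That subtraction was chosen after the dye terms had been seen.

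Where a gene had several probes they mostly gave the same sign. This held for 11 of the 14 such genes in the strain pair and 10 of the 14 in the diet pair. The median range between probes of a gene was 0.11 in the strain pair and 0.05 in the diet pair, and the widest was 0.33, for Mbp in the strain pair. Bcas1, Mal and Pllp were the 3 genes whose probes disagreed in sign in the strain pair.

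**Figure D4:**
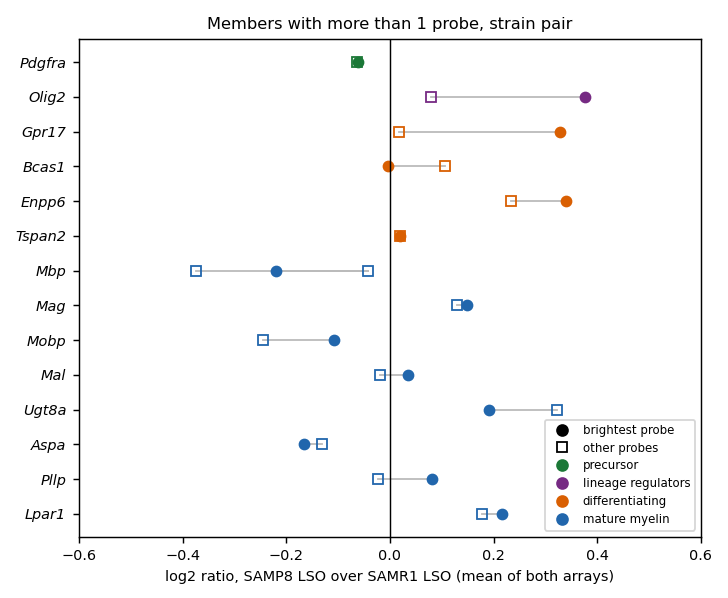
Mean log2 ratio of SAMP8 LSO over SAMR1 LSO (x axis) for every probe of the 14 genes with more than 1 probe (y axis), the brightest filled and the others open. Enpp6, Ugt8a, Lpar1 and Mag lie to the right of 0 by both probes, Aspa and Mobp to the left by both, and the dim second probes of Olig2 and Gpr17 lie close to 0.

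The diet pair asked whether the extract changed these genes within SAMP8, and the differences were small. None of the 30 genes reached 1.5-fold on both arrays, which was seen for 0.0863% of 26663 measured genes, and none reached a mean of 1.2-fold, against 0.506% of all measured genes, although Gpr17 did at 0.32 under median centring without loess. Among the 25 genes of higher brightness the count was likewise 0, against 0.396%. Mean log2 ratios of SAMP8 WME over SAMP8 LSO ran from −0.19 to 0.14. A single gene, Gpr17, was above 0 on both arrays, against 20.5% of all measured genes, and 5 (Nkx2-2, Nkx6-2, Opalin, Aspa and Pllp) were below 0 on both, against 17.6%. After the dye term of the strain pair was subtracted these counts were 5 and 8, against 25.6% and 22.4%.

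**Figure D5:**
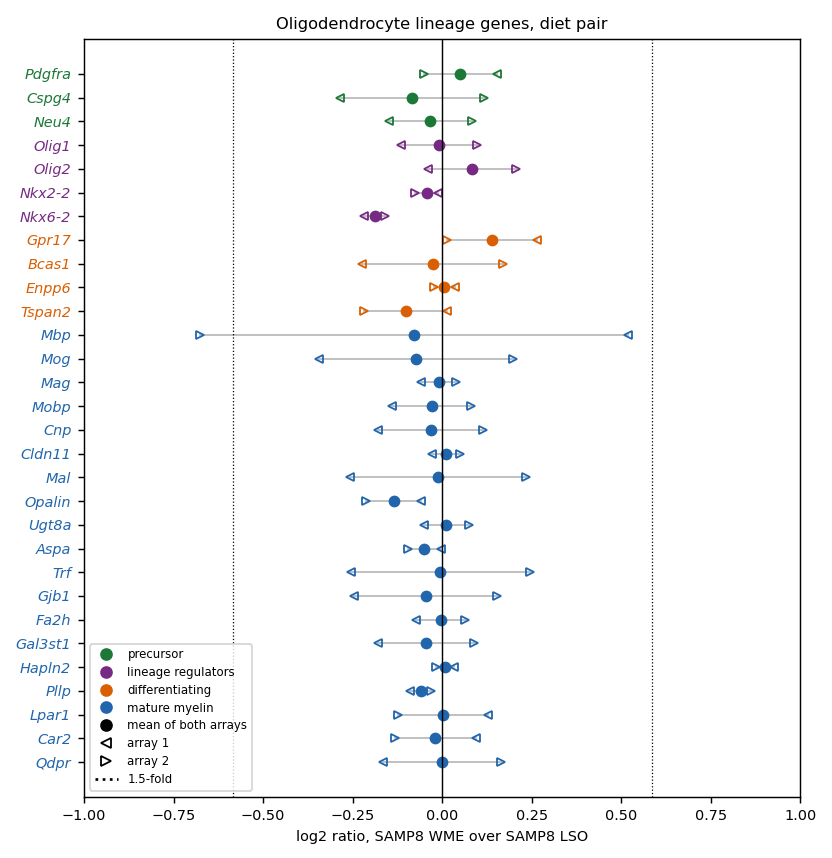
Log2 ratio of SAMP8 WME over SAMP8 LSO (x axis) for the brightest probe of each of the 30 genes (y axis), drawn as for the strain pair and on the same scale. All means lie between −0.19 (Nkx6-2) and 0.14 (Gpr17), and many arrays of a gene fall on opposite sides of 0; under median centring without loess the stage medians lie above 0.

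Nkx6-2 was the lowest of the 30 genes in the diet pair. Its processed signals were 3209 and 2966 in SAMP8 WME, against 3704 and 3455 in SAMP8 LSO, without overlap. Its log2 ratios were −0.22 and −0.16, a mean of −0.19 ± 0.04, which shrank to −0.01 under median centring without loess. Opalin had signals of 972 and 784 in SAMP8 WME, against 1051 and 943 in SAMP8 LSO, and a ratio of −0.14 ± 0.11, which was −0.0072 under that centring. Its RNAs overlapped in signal across the arrays. Gpr17 had signals of 6004 and 5087 in SAMP8 WME, against 5113 and 5155 in SAMP8 LSO, and a ratio of 0.14 ± 0.18, most of it on array 1, which was 0.32 under that centring.

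The remaining genes stayed near 0 in the diet pair. Olig1 and Olig2 had mean log2 ratios of −0.01 ± 0.15 and 0.08 ± 0.17, Enpp6 had 0.01 ± 0.04 and Car2 had −0.02 ± 0.16. Pdgfra had 0.05 and Cspg4 −0.08, each with arrays of opposite sign. The second Ugt8a probe had −0.17 and −0.10, against 0.01 for the mean of the brightest probe. Side by side, with SAMP8 LSO in both pairs, the stage medians of the diet pair were −0.03 for precursor genes, −0.03 for regulators, −0.01 for differentiating genes and −0.02 for mature myelin genes, against 0.0037 for all measured genes. Under median centring without loess all 4 of these medians turned positive, between 0.05 and 0.17, as did that of the neuron markers at 0.22.

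Further genes of the pathway were taken from 3 lists that hold none of the 30. Of 28 other measured oligodendrocyte and myelin genes, 13 were above 0 on both arrays and 2 below in the strain pair, against 23.9% and 26.7% of all measured genes, with a median log2 ratio of 0.10 that shrank to 0.02 under median centring without loess. Ninj2, a cell adhesion protein, was the 1 gene called at 1.5-fold, with log2 ratios of 0.75 and 0.71 or 1.66-fold. Anln, an actin-binding protein singled out after its values were seen, was the farthest on the other side, at −0.50 and −0.42. Of 16 other precursor and differentiation regulators 6 were above and 2 below, with a median of 0.04 that turned to −0.01 under median centring without loess. None was called, and the 3 farthest from 0 were Bmp4, a growth factor that restrains differentiation, at 0.42 ± 0.03, Itpr2, a calcium channel of the endoplasmic reticulum, at 0.29 ± 0.12, and C1ql1, a secreted protein of precursors, at 0.26 ± 0.01. The other, dimmer Itpr2 probes gave 0.13, 0.12 and −0.0025. Sox11, a transcription factor, had −0.03 by its brightest probe, −1.05 by the second and −0.03 by the third. That disagreement of the Sox11 probes was noticed after the values were seen. Of 18 ligands and receptors 6 were above and 5 below, with a median of −0.03. None was called there either. The farthest were Adgrg1, an adhesion receptor of precursors, at 0.45 ± 0.13, and S1pr5, a sphingosine phosphate receptor of oligodendrocytes, at −0.24 ± 0.01. Next came Fgf2, a growth factor, at 0.22 ± 0.13 by its brightest probe and 0.05 by another, both dim.

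In the diet pair none of these other genes was called. Under median centring without loess the medians of the 3 lists turned to 0.15, 0.10 and 0.13. With loess, the 28 oligodendrocyte and myelin genes had a median log2 ratio of −0.01, with 4 above 0 on both arrays and 5 below, and the farthest from 0 were Cd81 at −0.20 ± 0.57 and Apod at −0.15 ± 0.24, each with arrays of opposite sign. The 16 regulators had a median of −0.01, with 2 above and 3 below. The farthest were Sox11 at 0.18, Hes5 at −0.18 and Sall3 at 0.15. The other Sox11 probes gave 0.09 and −0.03, and the other Sall3 probe gave 0.07. The 18 ligands and receptors had a median of −0.0005, with 5 above and 4 below. The farthest there were Lingo1 at 0.25 ± 0.08 and Rtn4r at 0.20 ± 0.34, both receptors that restrain myelination or axon growth, and the neuregulin receptor Erbb3 at −0.14 ± 0.07. The other Erbb3 probes, as dim as the first, gave −0.0093, −0.0157 and 0.0368.

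Markers of other cell types moved between the strains as well, and their part in the ratios above was not tested. All 6 markers of meningeal fibroblasts and 7 of 7 endothelial markers were above 0 on both arrays, with median log2 ratios of 0.67 and 0.36. So were 6 of 7 mural cell markers, with a median of 0.33, against 23.9% of all measured genes. At 1.5-fold, 4 fibroblast markers (Col1a1, Col1a2, Col3a1 and Ogn) and 3 mural markers (Pdgfrb, Rgs5 and Kcnj8) were called higher. Of all 26937 measured genes 261 were called higher. The summed processed signals of the fibroblast markers were 17720 and 18690 in SAMP8 LSO, against 12330 and 13150 in SAMR1 LSO. For mural cells they were 16590 and 18410, against 13130 and 14380 in SAMR1 LSO, and for endothelium 14940 and 17870, against 12750 and 12880. Pdgfra is also a fibroblast gene and Cspg4 a mural gene, and their strain ratios were −0.06 and 0.13. Astrocyte markers were above 0 on both arrays in 4 of 8 cases and below 0 on both in 2 (Aldh1l1 and Gja1), with a median of 0.12. Their sums were 167000 and 151100 in SAMP8 LSO, against 133600 and 160200 in SAMR1 LSO, and the highest ratio was that of Gfap at 0.55. Cerebellar markers were above 0 on both arrays in 5 of 6 cases, with a median of 0.11 and sums of 111500 and 118500 in SAMP8 LSO, against 102700 and 106000 in SAMR1 LSO. Under median centring without loess the astrocyte and cerebellar medians shrank to 0.0114 and 0.0044.

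Of the other lists, neuron markers had a median of −0.01, with 0 of 11 above and 2 below. Microglia markers had 0.0043, with 3 of 8 above and 4 below. Of all measured genes 23.9% were above and 26.7% below. The 4 Schwann cell markers had a median of 0.02 and sums of 712 and 1201 in SAMP8 LSO, against 748 and 1131 in SAMR1 LSO. Schwann cells share Mbp, Mag, Mal and Pllp with oligodendrocytes. Kidney transcripts had a median of −0.70, with 8 of 8 below. Kap, Acsm2, Cyp4b1 and Dnase1 were called lower, as were 133 of all 26937 measured genes. Every measured marker in the cell type lists was well above background in both RNAs apart from the kidney genes Acsm2 and Umod.

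In the diet pair 20.5% of all measured genes were above 0 on both arrays and 17.6% below. Kidney transcripts had a median log2 ratio of 1.44, and 7 of 8 were called higher in SAMP8 WME, against 15 of 26663 measured genes. Mal and Car2, which kidney also makes, stood at −0.01 and −0.02 there. Cerebellar markers had a median of −0.23 with 6 of 6 below 0 on both arrays, which was −0.02 under median centring without loess, and sums of 111600 and 101800 in SAMP8 WME, against 131500 and 114700 in SAMP8 LSO. Fibroblast markers had a median of −0.19, with 4 of 6 below, which was −0.02 under that centring, and astrocyte markers −0.11, with 5 of 8 below, a median that turned to 0.10 under median centring. Endothelial markers had −0.09, with 5 of 7 below, and mural markers −0.06, with 3 of 7 below, both turning to about 0.05 under median centring. Microglia markers had 0.10 with 5 of 8 above and choroid plexus markers 0.08 with 1 of 6 above, each 0.24 under median centring. Schwann cell markers had 0.01 and neuron markers −0.0026. The part of these tissues in the ratios of the lineage genes was not tested.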

How the data were processed

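Agilent Feature Extraction 11.0.1.1 made the deposited spot intensities from the scans. Median intensities and local backgrounds are raw, and the processed signals are background-subtracted and dye-normalized by that program, per the file headers. The deposited log10 ratios of red over green were used only as a check. The deposited log2 series table held the log2 ratio of the processed signals, red over green (largest difference 5e-09), not turned for dye, with column medians of −0.018, 0.012, 0.0036 and 0.017.

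Median intensities were corrected with normexp (offset 50) and loess in limma 3.58.1 (R 4.3.3), control spots at weight 0. Outlier spots (105 to 123 per array) were left out, spots of a probe averaged, ratios turned for dye and both arrays of a pair averaged. All 4 arrays lay on 1 slide, so no batch could be compared. The number of arrays limits precision. The offset pulls ratios of dim probes towards 0. Through accessions, 23366 of 41174 probes were named with the RefSeq gene table of GRCm38.p6, from which no gene coordinates were taken. A gene stands by its brightest probe. A gene was called where both arrays reached 1.5-fold with the same sign. Code was tested on simulated data. Of 50 genes with a true 1.5-fold change, 2 were called in the simulated diet pair and 1 in the simulated strain pair. At a true 1.3-fold 0 of 50 were called in each, and at a true 2-fold 43 and 41 of 50. A gene that was not called can thus still differ by about 1.5-fold and, less often, by 2-fold.

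Every lineage gene is named. Of other lists, called genes are named, or otherwise up to 3 genes with the largest ratio, of which 1 is not reported here, and some context markers were singled out after their values were seen. The genes and lists were chosen with earlier results of these data known. The alternatives were median centring, processed signals, no background subtraction, other filters on dim probes, the median over probes, other folds and each array alone.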

Additional observations from a re-analysis of the deposited data

How the results depend on the processing

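Counts of lineage genes called were 0 in both pairs under every normalization, filter and probe rule tried and at 1.3-fold and 2-fold. At 1.3-fold, 27 of 26663 measured genes were called higher and 15 lower in the diet pair. In the strain pair these were 488 and 264 of 26937. At 2-fold the counts were 7 and 2 in the diet pair and 101 and 38 in the strain pair. With processed signals they were 63 and 39, and 473 and 282. With a single array, which leaves the probe's dye effect in the ratio, 0 to 1 gene was called in the diet pair (Mbp, without array 1) and 1 to 1 in the strain pair (Mbp without array 1, Opalin without array 2). Of all measured genes, 15 were called higher and 62 lower in the diet pair without array 1, and 81 and 20 without array 2. In the strain pair these were 323 and 239, and 389 and 176. A mean of at least 1.2-fold, added after the data were seen, gave 6 genes in the strain pair. Median centring without loess moved diet medians most, to 0.1688 for all 30 genes, 0.1076 for regulators, 0.1308 for differentiating and 0.1702 for mature myelin genes, and the strain median of differentiating genes to 0.1038. The median of all measured genes in the diet pair was then 0.0664, and the cause was not tested. Processed signals gave 0.0156 for differentiating genes in the diet pair, as did the median over probes, and 0.0604 for precursor genes in the strain pair. The median over probes gave 0.1359 for regulators and 0.1117 for differentiating genes in the strain pair, since it takes in the dim probes of Olig2 and Gpr17. Leaving out 1 array gave −0.0046 to 0.0253 for differentiating genes in the diet pair, 0.0243 to 0.143 for all 30 genes in the strain pair and 0.1801 to 0.2288 for differentiating genes there. Ratios of 24 of 30 genes kept their sign under all settings with both arrays in the strain pair, and 8 of 30 did in the diet pair. The share of all measured genes that kept their sign is not given here. No paired analysis was possible because the replicate numbers name the dye orientation of the same RNAs and not separate animals.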
